A study of Arabidopsis thaliana with 16 samples.

Results

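The response to low oxygen was measured in Arabidopsis thaliana roots carrying an RNA interference construct against HRE1 (AtERF73). It was read by setting the 4 HRE1-RNAi hypoxia arrays against the 4 HRE1-RNAi normoxia arrays, 8 of the 16 arrays of the study, over all probe sets other than the manufacturer's controls. HRE1-RNAi hypoxia seedlings, in ecotype Columbia and 14 days old, spent 6 h in the dark floating on medium supplied with 3% oxygen, the rest of the gas being nitrogen. HRE1-RNAi normoxia seedlings had the same line, ecotype and age and are labelled as 6 h of normoxia, while the design text calls the controls untreated. Flotation and darkness are described for hypoxia alone, so low oxygen cannot be told apart here from any such difference in handling. The other 8 arrays, 4 of wild type (Columbia) hypoxia and 4 of wild type normoxia, treated alike, are used for the spread and for comparison. The titles name a single line, HRE1-RNAi20, but most descriptions name RNAi21 to RNAi24, with a different number on most arrays of a condition, so whether 1 line or several were sampled was not settled. No probe set was paired with HRE1, so its own level in these roots was not analysed here. Arrays of 1 group are labelled as biological replicates, and the tests cover the variation among those.

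HRE1 encodes an ethylene response factor of group VII, a family of transcription factors that drive the low-oxygen programme of plants. In air, oxygen-dependent oxidation at the N-terminus marks its relatives for breakdown. When oxygen falls they accumulate and switch on genes of fermentation, which regenerate NAD+ for glycolysis when respiration slows, along with regulators that limit the response. In roots, low oxygen also slows costly processes such as growth, transport and the making of cell walls and specialised metabolites.

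Of 22810 probe sets, 22746 were tested, and 13513 of these are paired with 1 gene. A gene counts as measured below where it has such a pairing. No gene is listed for another 8730, so a gene that is not measured here may still have a probe set on the array. Values are MAS5 intensities, the linear brightness summary of a probe set, scaled to a common level per array. Changes are log2 differences, HRE1-RNAi hypoxia minus HRE1-RNAi normoxia, after adding a pseudocount of 16, and understate changes of dim probe sets. They carry the standard error of the limma fit, with 4 arrays in each group, and a probe set is called at a Benjamini-Hochberg adjusted p below 0.05. The median intensity was 175 ± 10.9 (SD) in hypoxia and 190.2 ± 11.5 in normoxia. The mean excess of 3′ over 5′ control probe sets, a measure of RNA integrity, was 1.12 ± 0.17 log2 in hypoxia and 1.08 ± 0.17 in normoxia. The 25S rRNA control read 13010 ± 7996 in hypoxia and 1740.3 ± 1421 in normoxia. With exact permutation over 4 against 4 arrays, where the smallest p is 0.029, these gave p = 0.114, p = 0.686 and p = 0.0857 (adjusted over 4 measures 0.152, 0.686 and 0.152). The arrays numbered 4 stood apart in both conditions. Their 25S rRNA reading was 1776 in hypoxia, against 14443 to 20696 in the other hypoxia arrays, and 273 in normoxia, against 821 to 3262. Their 3′ excess was 1.35 in hypoxia and 1.32 in normoxia, and their deviations from the group means had an SD of 0.36 and 0.38 log2, against 0.18 to 0.30 in the other 6. Leaving both out moved the log2 changes of 128 named probe sets by a median of 0.10 and at most 0.72. The 25S rRNA control was not tested in wild type, where it read 13791 to 18562 in hypoxia and 576.5 to 4253 in normoxia.

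Hypoxia changed the transcriptome of HRE1-RNAi roots widely. In all, 1708 probe sets were higher, 7.51% of those tested, and 2427 were lower, 10.7%, or 18.2% in either direction. Centring each array on its median instead gave 2134 higher and 1702 lower, so the side with more calls depended on the scaling. Of the calls, 41.3% were higher on the deposited scale, 47.3% after quantile normalization and 55.6% after centring, which moved the median of all probe sets to 0.05, against -0.06. Rises were the steeper ones, with 110 called probe sets at least 8-fold higher and 25 at least 8-fold lower. At least a 2-fold change was seen for 878 higher ones (3.86%) and 859 lower ones (3.78%). In 3439 of the 4135 called probe sets no hypoxia array overlapped a normoxia array, which holds for 19.5% of all probe sets. Without both arrays numbered 4 the counts were 1742 higher and 2472 lower.

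Core low-oxygen genes, those known to rise in many Arabidopsis tissues under oxygen shortage, rose nearly throughout. Of 48 listed, 27 were paired with a probe set of their own. Of these, 24 were higher, 0 lower and 3 not called, with a median change of 2.58 against -0.05 over 13355 genes. Among all probe sets 7.51% were higher. RNA was taken from whole roots, so fewer cells of a type and less RNA per cell cannot be told apart in any fall below, nor more cells and more RNA in a rise.

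HRA1, a trihelix transcription factor that restrains the group VII factor RAP2.12, read 2429, 2441, 2318 and 2010.4 in the 4 HRE1-RNAi hypoxia arrays, against 144, 229, 286 and 216 in HRE1-RNAi normoxia. The groups lay far apart, with a change of 3.33 ± 0.17 (adjusted p = 1.81e-12). It was the single member measured of the 15 genes listed for oxygen sensing and group VII factors. CML38, a calmodulin-like calcium sensor found in RNA granules under low oxygen, read 6235, 5489, 5233 and 5333 in hypoxia, against 25.2, 75.3, 95.9 and 82.0 in normoxia. Every hypoxia array was far above every normoxia array, and the change was 6.12 ± 0.23 (adjusted p = 3.38e-14). HRU1, a universal stress protein that links low oxygen to hydrogen peroxide production, read 11233, 13166, 13026 and 12370.0 in hypoxia, against 1386, 1253, 2060.5 and 2402 in normoxia. Its change was 2.85 ± 0.16 (adjusted p = 6.68e-12), again with no overlap.

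Both measured fermentation genes of 13 listed rose, where 7.51% of all probe sets were higher. PDC2, a pyruvate decarboxylase at the entry to ethanol fermentation, read 4379.9, 4991, 4708 and 2022 in hypoxia, against 878, 1206, 1157 and 606 in normoxia. Hypoxia array 4 was the lowest of its group and yet above every normoxia array, and the change was 2.01 ± 0.24 (adjusted p = 2.70e-06). LDH1, the lactate dehydrogenase, read 3445, 3637, 3221 and 3162 in hypoxia, against 446, 536, 632 and 524 in normoxia. It was tightly grouped in both conditions and changed by 2.63 ± 0.12 (adjusted p = 4.06e-13). Glycolysis and sucrose breakdown genes changed less: of 7 measured among 30 listed, 2 were higher, 0 lower and 5 not called, with a median of 0.37, beside the same 7.51% higher and 10.7% lower over all probe sets. GAPC2, a cytosolic glyceraldehyde-3-phosphate dehydrogenase, rose by 0.65 ± 0.11, with means of 21662 ± 2008 in hypoxia and 13881 ± 2214 in normoxia (SD). PPDK, pyruvate orthophosphate dikinase, rose by 0.66 ± 0.23 (adjusted p = 0.046), a call lost in 13 of 27 alternatives, among them leaving out both arrays numbered 4 (adjusted p = 0.122). TPI, triosephosphate isomerase, had 0.29 ± 0.16 and PGIC, phosphoglucose isomerase, 0.12 ± 0.13, and neither was called.

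Several of the steepest core genes encode small proteins of unknown function. AT5G10040 read 10045, 7641, 7389.9 and 8739.5 in hypoxia, against 19.9, 56.9, 259 and 232 in normoxia, where the arrays spread widely. The change was 6.19 ± 0.51 (adjusted p = 1.75e-07), and its larger error goes with that spread in normoxia. AT3G29970, of the B12D family of mitochondrial proteins, read 5540.4, 4715, 4948 and 7705 in hypoxia, against 48.9, 80.4, 112 and 202 in normoxia. It rose by 5.61 ± 0.34, without overlap. AT2G17850, a rhodanese-like protein, rose by 4.79 ± 0.26, AT4G24110, of unknown function, by 4.77 ± 0.24, and AT4G33560, of the wound-responsive family, by 4.62 ± 0.31. AT4G10270, of that same family, had means of 11507 ± 931 in hypoxia and 841 ± 376 in normoxia (SD) and rose by 3.87 ± 0.25. AT5G66985 rose by 3.40 ± 0.13, AT3G23170 by 3.65 ± 0.19, AT5G44730, a haloacid dehalogenase-like hydrolase, by 3.48 ± 0.15, and AT3G27220, a kelch repeat protein, by 2.88 ± 0.14. All of these had 4 hypoxia arrays above all 4 normoxia arrays.

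Moderate rises made up the rest of the core genes. AT1G72940, a TIR-domain gene, rose by 2.58 ± 0.18, AT4G39675 by 2.16 ± 0.16, AT4G17670 by 2.07 ± 0.16 and AT1G33055 by 2.05 ± 0.16. AT4G27450, of the aluminium-induced protein family, had means of 21011 ± 1778 in hypoxia and 8214 ± 1814 in normoxia (SD), a change of 1.37 ± 0.13. AT1G74940 rose by 1.29 ± 0.17, AT1G26270 by 0.96 ± 0.12, AT1G19530 by 0.74 ± 0.12 and AT1G10140 by 0.56 ± 0.12. AT5G42200, a RING finger gene whose groups overlapped, rose by 0.67 ± 0.22 (adjusted p = 0.0418). That call was lost when any of HRE1-RNAi normoxia arrays 1, 2 and 3, HRE1-RNAi hypoxia arrays 1 and 4 or wild type normoxia array 1 was left out (adjusted p from 0.0506 to 0.151). The 3 members not called were AT2G15880 at 0.82 ± 0.36, AT3G10020 at 0.26 ± 0.14 and AT5G45960 at -0.66 ± 0.37, the last dim in both conditions with means of 17.6 in hypoxia and 35.8 in normoxia. The pairing of AT3G10020 with its probe set could not be checked.

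**Figure D1:**
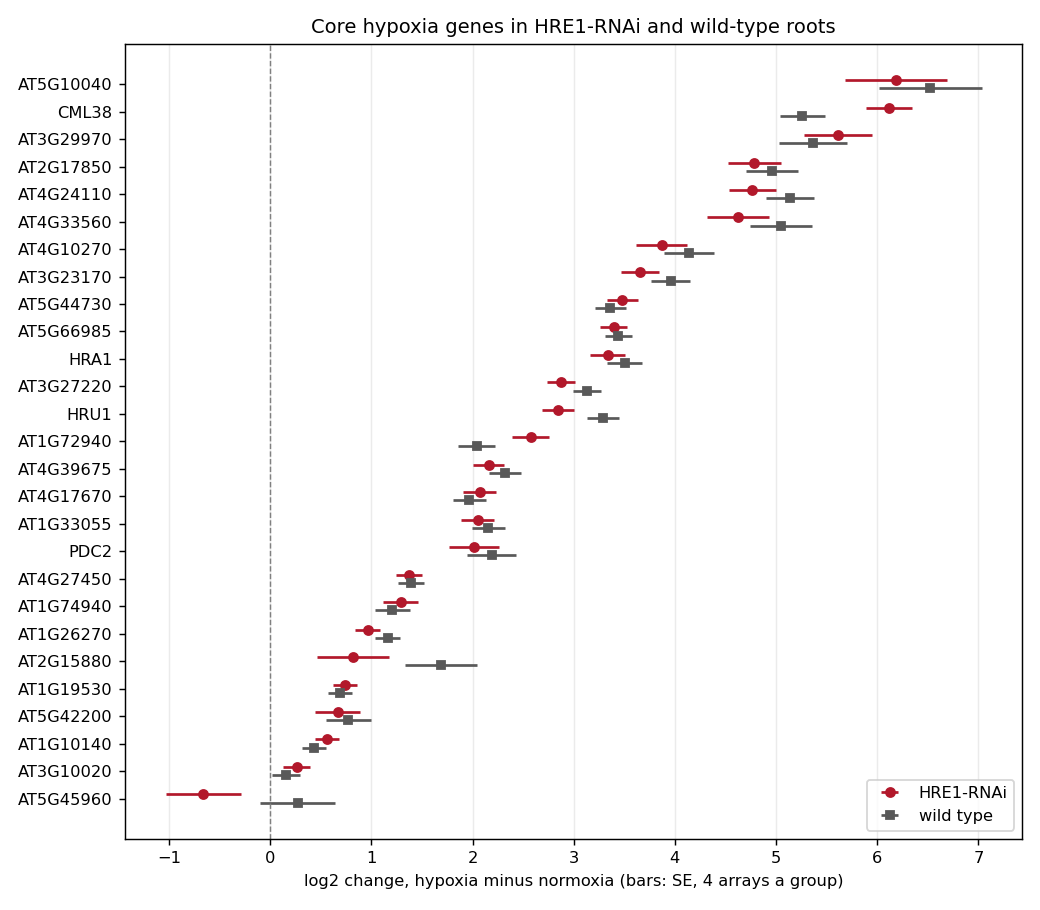
Log2 changes of the 27 measured core low-oxygen genes, hypoxia minus normoxia, in HRE1-RNAi roots beside the same genes in wild type roots, with bars of 1 standard error. In HRE1-RNAi 24 were called higher, from AT5G10040 at 6.19 down to AT1G10140 at 0.56, and 3 were not called.

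Outside the core list, some of the largest rises were those of a protease, an oxidoreductase and a peptide precursor gene. AT5G48430, an aspartyl protease family gene, read 4028, 6053, 4938 and 6599 in hypoxia, against 47.2, 40.6, 59.8 and 28.2 in normoxia. No other gene with a probe set of its own and a normoxia mean of at least 16 rose as far, at 6.50 ± 0.19 (adjusted p = 4.23e-16). AT1G26380, a berberine bridge enzyme-like FAD oxidoreductase, read 1493, 1428, 1738 and 3084 in hypoxia, against 24.2, 13.7, 69.9 and 2.40 in normoxia. Its normoxia values were low and scattered, and its change was 5.65 ± 0.36, or 6.73 with a pseudocount of 1 and 4.43 with 64. AT2G23270, a precursor of the PIP family of secreted defence peptides, read 1857, 1065, 1453 and 3193 in hypoxia, against 47.3, 18.0, 19.9 and 24.5 in normoxia, a change of 5.39 ± 0.36. Hypoxia and normoxia arrays of all 3 genes lay apart by a wide margin.

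Class III peroxidases, enzymes that make or use hydrogen peroxide in the cell wall, stood among the rises as well as the falls. AT5G39580 read 3458, 3437, 3290.3 and 4368 in hypoxia, against 98.3, 89.6, 129.9 and 108 in normoxia, a change of 4.90 ± 0.19. AT1G14550 read 891, 677, 736 and 2632 in hypoxia, against 16.3, 21.9, 61.9 and 34.2 in normoxia, a change of 4.50 ± 0.43. Both had no overlap, and in AT1G14550 hypoxia array 4 was far above the other 3. AT2G37130 went the other way, with means of 6477 ± 1762 in hypoxia and 14310.4 ± 2809 in normoxia (SD), a change of -1.17 ± 0.18. Further large rises were those of AT5G22555 (5.24 ± 0.25) and AT1G36640 (5.09 ± 0.33), both of unknown function. AT5G59680, a leucine-rich repeat receptor kinase, rose by 4.61 ± 0.23, and AT2G47560, an ATL-type RING finger gene, by 4.20 ± 0.43.

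Some rises began below the pseudocount, so that their size depends on it. AT3G03670, another class III peroxidase, read 586, 553, 717 and 2673 in hypoxia, against 2.20, 3.40, 4.60 and 2.00 in normoxia, and rose by 5.57 ± 0.35. AT4G37290, a second PIP precursor gene, had means of 489.9 ± 371 in hypoxia and 6.35 ± 0.98 in normoxia (SD) and rose by 4.26 ± 0.38, or by 5.81 with a pseudocount of 1 and 2.78 with 64. AT1G49030, of the PLAC8 family, rose by 4.22 ± 0.35, and AT1G26420, also berberine bridge enzyme-like, by 4.12 ± 0.34. AT3G55790 rose by 3.97 ± 0.55, and by 3.26 without both arrays numbered 4. Of the 128 named probe sets compared in this way, it was the single one whose fold moved by more than 1.5 times. Probe sets of all 5 genes had no overlap between the groups.

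Measured as a gain in intensity, the leaders among probe sets paired with 1 gene were AT4G39675, AT4G27450, AT5G66985, HRU1 and AT4G10270, all core genes given above, and 3 others. AT3G11930, a universal stress protein, had means of 15488 ± 2506 in hypoxia and 4851 ± 886 in normoxia (SD), a change of 1.67 ± 0.16. AT1G52200, of the PLAC8 family, had means of 10870.1 ± 1488 in hypoxia and 1839.6 ± 549 in normoxia, a change of 2.59 ± 0.18. AT3G27770 had means of 13266 ± 1044 in hypoxia and 4216 ± 761 in normoxia, a change of 1.66 ± 0.15. All 8 genes kept the 4 hypoxia arrays above the 4 normoxia arrays.

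**Figure D2:**
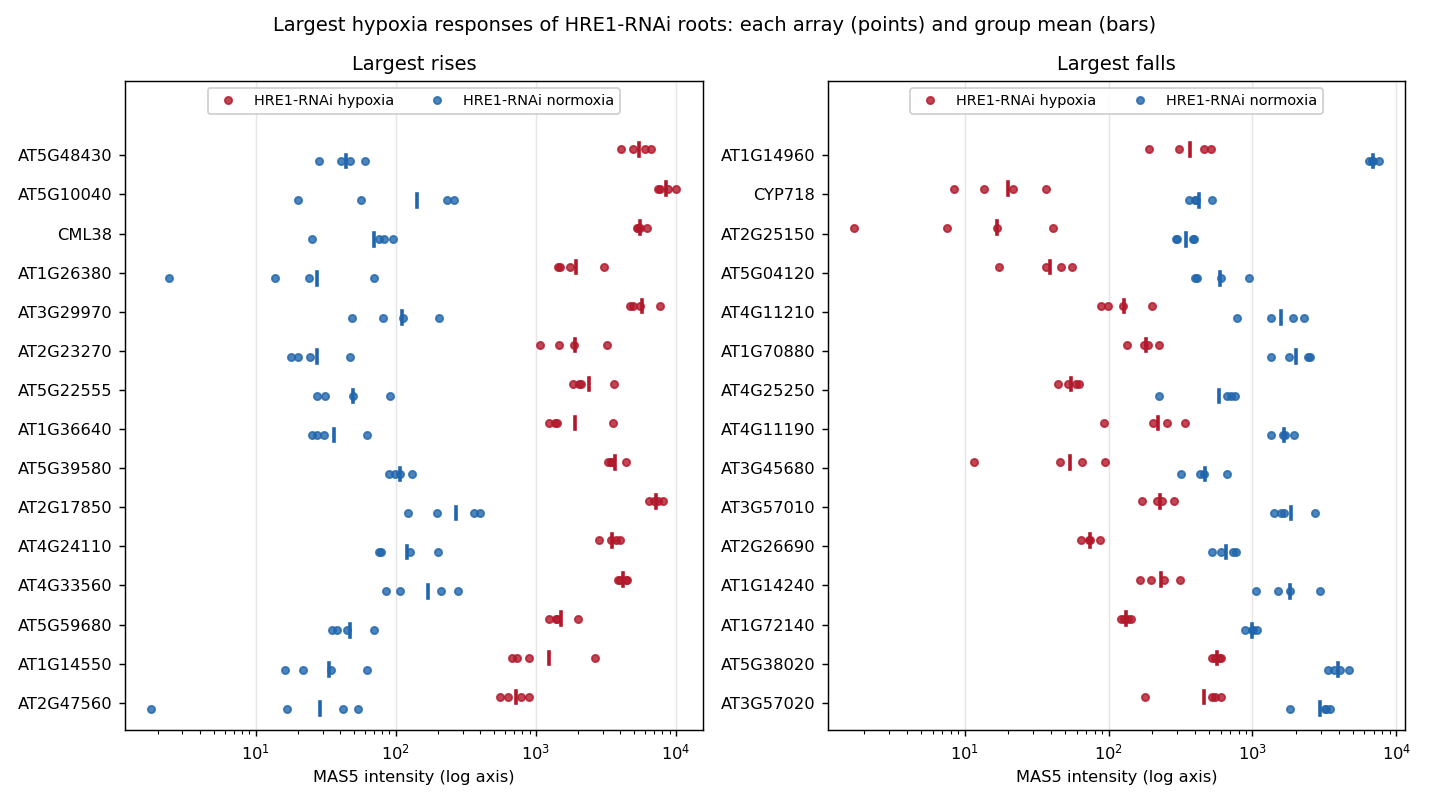
MAS5 intensity on a log axis in each of the 4 HRE1-RNAi hypoxia arrays (red points) and the 4 HRE1-RNAi normoxia arrays (blue points) for the 15 largest called rises and the 15 largest called falls, with group means as bars. Eligible were only genes with a probe set of their own, groups that do not overlap and a lower group mean of at least 16. AT2G47560 scatters in normoxia from 1.80 to 53.9.

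The largest falls included a Bet v 1 type gene, a cytochrome P450 and an acyltransferase. AT1G14960, of the major latex protein and Bet v 1 family of ligand-binding proteins, read 464, 513, 308 and 190.4 in hypoxia, against 6423, 6906, 7556 and 6764 in normoxia. Its change was -4.26 ± 0.21 (adjusted p = 1.29e-12), and the family member AT1G70880 changed by -3.34 ± 0.18. CYP718, a cytochrome P450, read 21.8, 36.6, 8.40 and 13.6 in hypoxia, against 406, 397, 519.9 and 365 in normoxia, a change of -3.65 ± 0.27. AT2G25150, an acyltransferase that makes coumaroyl spermidine in roots, read 16.7, 7.50, 1.70 and 41.2 in hypoxia, against 384, 295, 301 and 391 in normoxia, a change of -3.58 ± 0.30. All 4 genes were clearly apart, and in hypoxia CYP718 and AT2G25150 were near the pseudocount.

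Enzymes and wall proteins made up several more of the 15 largest falls to a mean of at least 16. AT4G11210 and AT4G11190, both dirigent proteins, which steer the coupling of phenoxy radicals into lignans, changed by -3.42 ± 0.27 and -2.92 ± 0.23. AT4G25250, a pectin methylesterase inhibitor, had means of 54.7 ± 7.88 in hypoxia and 589 ± 246 in normoxia (SD) and changed by -2.97 ± 0.34. The strictosidine synthase-like genes AT3G57010 and AT3G57020 changed by -2.91 ± 0.24 and -2.71 ± 0.28. AT5G38020, a SABATH methyltransferase, read 519, 588, 609 and 551 in hypoxia, against 4089, 4699, 3689 and 3338 in normoxia, a change of -2.76 ± 0.14 (adjusted p = 1.81e-12). The groups lay far apart. AT1G14240, a nucleoside phosphatase, changed by -2.85 ± 0.24. AT5G04120 changed by -3.43 ± 0.29, though the pairing of that name with its probe set is in doubt.

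Transporters of the NRT1/PTR family, which carry nitrate, peptides and other solutes, supplied 3 of the 15. AT1G72140 read 123, 128, 143 and 136 in hypoxia, against 1014, 1072, 894 and 989 in normoxia, a change of -2.76 ± 0.18. AT2G26690, a nitrate transporter, read 86.8, 73.2, 63.9 and 74.6 in hypoxia, against 526, 763, 736 and 608 in normoxia, a change of -2.89 ± 0.17. AT3G45680 had means of 54.2 ± 34.8 in hypoxia and 470.2 ± 145 in normoxia (SD) and changed by -2.91 ± 0.34. In all 3 the hypoxia arrays lay below every normoxia array.

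Falls that ended below the pseudocount were those of AT2G34610 (-4.12 ± 0.23), AT1G23160, a GH3 family gene (-4.00 ± 0.29), AT1G49450 (-3.32 ± 0.28), AT1G34330 (-2.76 ± 0.31) and AT1G63600 (-2.46 ± 0.33). AT2G34610 had means of 4.30 ± 0.42 in hypoxia and 344 ± 80.0 in normoxia (SD), and its change was -5.99 with a pseudocount of 1 and -2.55 with 64. By loss of intensity, again among probe sets paired with 1 gene, the leaders included JAL33, a jacalin-related lectin, with means of 9075 ± 1530.4 in hypoxia and 17838 ± 1189.6 in normoxia, a change of -0.99 ± 0.13. NAI2, a protein needed to form endoplasmic reticulum bodies, changed by -1.01 ± 0.18. PYK10, the beta-glucosidase stored in those bodies and the single measured root marker of 17 listed, had 21090.5 ± 4290.4 in hypoxia and 22949 ± 2944 in normoxia and was not called (-0.14 ± 0.14). Among the other losses were AT4G16190, a papain-like cysteine protease (-2.35 ± 0.13), the TRAF-like genes ZW9 (-2.52 ± 0.18) and AT5G26260 (-1.77 ± 0.18), and STR18, a sulfurtransferase (-1.91 ± 0.16).

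Heat shock genes, whose products keep damaged proteins from clumping, rose under hypoxia. Of 9 measured among 22 listed, 8 were higher, 0 lower and 1 not called, with a median of 1.73, beside 7.51% higher over all probe sets. AT2G29500, a small heat shock protein, read 1822, 1437, 724 and 2351 in hypoxia, against 211, 215, 242 and 431 in normoxia, a change of 2.40 ± 0.27. AT1G52560 read 333, 292, 137 and 517 in hypoxia, against 40.6, 36.0, 4.50 and 79.1 in normoxia, a change of 2.65 ± 0.39. Both were free of overlap. The small heat shock genes AT1G53540 (2.09 ± 0.45) and AT1G54050 (1.79 ± 0.33) were called although their groups overlapped, and ATHSP22.0 (1.73 ± 0.34) and AT5G51440 (1.67 ± 0.16) did not overlap. The other 2 calls were AT5G37670 (1.50 ± 0.24) and FKBP65, a peptidyl-prolyl isomerase that acts as a co-chaperone. FKBP65 read 304, 376, 240.0 and 894 in hypoxia, against 96.2, 134, 232 and 358 in normoxia, so that the groups overlapped. Its rise of 1.06 ± 0.36 (adjusted p = 0.0488) lost its call in 16 of 27 alternatives (adjusted p from 0.00729 to 0.168 over all 27). AT2G20560, a DnaJ-type chaperone, was the member not called, at -0.0025 ± 0.20.

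All 4 measured defence regulators of 14 listed rose, with a median of 2.10, beside 7.51% higher over all probe sets. STZ, a zinc finger repressor of stress responses, read 1119.6, 1369.6, 1351 and 2516 in hypoxia, against 119.7, 80.9, 133 and 96.0 in normoxia, a change of 3.65 ± 0.26 (adjusted p = 4.50e-10). WRKY22, a factor of immune signalling, read 587, 520.4, 305 and 736 in hypoxia, against 82.4, 45.0, 72.1 and 94.9 in normoxia, a change of 2.59 ± 0.22. WRKY53, linked to senescence and defence, rose by 1.61 ± 0.27. WRKY6 rose by 0.50 ± 0.16 (adjusted p = 0.0274), a call lost in 7 alternatives, among them a fit of the 8 HRE1-RNAi arrays alone (adjusted p = 0.0647). The other 3 WRKY genes measured, WRKY20, WRKY42 and WRKY47, were not called, and neither were any of 7 bZIP factors.

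Of the reactive oxygen list, UPOX rose by 1.17 ± 0.29 and HRU1 as given above, while NDB2, an external NADH dehydrogenase of mitochondria, was not called (0.11 ± 0.19). AT3G13610, which makes the coumarin scopoletin's precursor and serves iron uptake, read 7046, 9500.4, 9147 and 7567 in hypoxia, against 1039, 1070.0, 1335 and 937 in normoxia. It rose by 2.91 ± 0.14 (adjusted p = 7.41e-13), without overlap, whereas COSY, the next enzyme of coumarin synthesis, had -0.06 ± 0.14 and was not called. Neither EIN3 nor RTE1 of ethylene signalling was called, at 0.17 ± 0.13 and -0.36 ± 0.14. The same held for MCCA and AKINBETA1 of the sugar starvation list (0.27 ± 0.20 and -0.01 ± 0.12) and for the clock gene GI (-0.17 ± 0.15). Jasmonate, nitrate, aquaporin and suberin lists had 0 members paired with a probe set of their own, which does not show that the array lacks them.

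All 3 measured root hair genes of 13 listed fell, with a median of -1.74, where 10.7% of all probe sets were lower. EXPA7, an expansin that loosens the wall of growing root hairs, read 79.4, 171, 248 and 226 in hypoxia, against 543, 554, 729 and 589 in normoxia, a change of -1.74 ± 0.24. XTH26, a xyloglucan-modifying enzyme of root hairs, read 34.4, 51.1, 78.1 and 64.3 in hypoxia, against 208, 295, 327 and 212 in normoxia, a change of -1.93 ± 0.32. EXPA18 changed by -0.86 ± 0.22, and none of the 3 had overlapping groups. Of the cell cycle list, AUR2, a mitotic Aurora kinase, changed by -0.89 ± 0.17, while AUR1 (-0.23 ± 0.15) and PRL, a replication licensing factor (-0.15 ± 0.17), were not called.

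Shoot photosynthesis markers, measured as a check on root sampling, were lower in hypoxia too. Of 21 listed 3 were measured, and their summed intensity was 1332 ± 224 in hypoxia (1130.2 to 1653) and 2342 ± 179 in normoxia (2085 to 2498), by exact permutation p = 0.0286, adjusted to 0.114 over the 4 array measures. LHCB4.1 and LHCB4.2, proteins of the light-harvesting antenna, changed by -0.86 ± 0.13 and -1.27 ± 0.21, and RCA, Rubisco activase, was not called (-0.18 ± 0.17). None of the 3 was at 0 in any group mean, and the part of shoot tissue or darkness in the falls given above was not tested.

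**Figure D3:**
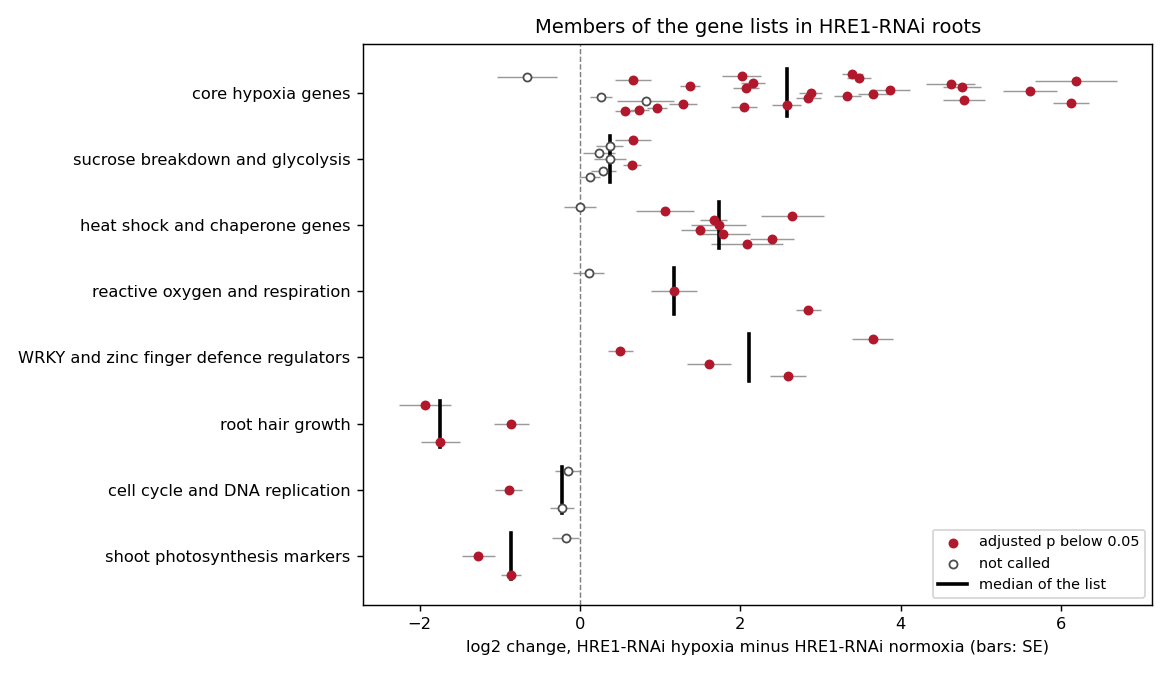
Log2 changes in HRE1-RNAi roots, hypoxia minus normoxia, of the measured members of the 8 gene lists with at least 3 of them, 1 point per gene with its standard error, filled where called, and with a bar at each list's median. Core low-oxygen genes sit highest, at a median of 2.58, and root hair, cell cycle and shoot photosynthesis genes sit below 0 throughout.

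Gene families taken by symbol moved in both directions. UDP-glycosyltransferases, which attach sugars to hormones and secondary metabolites, had 7 higher, 10 lower and 30 not called of 47, a median of -0.09, beside 7.51% higher and 10.7% lower over all probe sets. The calls of UGT73C7, UGT88A1 and UGT71C1 were lost in 10, 8 and 5 alternatives, and those of UGT85A5 and UGT85A4 in 1 each. UGT76B1, which glucosylates defence signals, rose by 1.58 ± 0.15, with means of 2593 ± 455 in hypoxia and 859 ± 204 in normoxia (SD). UGT73B4 and UGT87A2 rose by 1.65 ± 0.20 and 1.50 ± 0.14. UGT72E2 and UGT72E3, which glucosylate lignin precursors, changed by -1.57 ± 0.19 and -1.36 ± 0.23, and UGT76C1, which inactivates cytokinin by N-glucosylation, by -1.36 ± 0.20. Of 26 genes with a CYP symbol, 3 were higher and 5 lower, beside the same 7.51% and 10.7% over all probe sets. The 26 include CYP59 and CYP71, named so as cyclophilins and not called. Among the lower ones, the calls of CYP84A4 (adjusted p = 0.0497) and CYP71B26 (adjusted p = 0.0214) were lost in 19 and 7 of 27 alternatives. CYP71B6 read 3588, 3104, 3948 and 4537 in hypoxia, against 1256, 1232, 1179.7 and 1231 in normoxia, and rose by 1.61 ± 0.13 without overlap. CYP71B29 rose by 1.22 ± 0.22 and its neighbour in name CYP71B28 changed by -1.71 ± 0.19, CYP71B23 rose by 0.60 ± 0.14 and CYP71B34 changed by -0.84 ± 0.19.

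Glutathione transferases, which conjugate reactive compounds, had 3 higher and 3 lower of 14, beside 7.51% higher and 10.7% lower over all probe sets, and 3 of these 6 calls were lost in at least 1 alternative. GSTU26 read 1122, 1218, 1139 and 658 in hypoxia, against 4282, 4923, 5092 and 3714 in normoxia, a change of -2.13 ± 0.16, without overlap. GSTU28 changed by -1.50 ± 0.25 and GSTL3 by -0.52 ± 0.13, while GSTU20 rose by 1.31 ± 0.33, GSTU22 by 0.72 ± 0.18 and GSTU27 by 0.37 ± 0.12. The call of GSTU22 was lost with the 8 HRE1-RNAi arrays alone (adjusted p = 0.0506), and that of GSTL3 after centring (adjusted p = 0.0574). That of GSTU27 was lost in 7 of 27 alternatives. These were quantile normalization (adjusted p = 0.0564), the 8 arrays alone (adjusted p = 0.0886), neither trend nor robust moderation (adjusted p = 0.0509) and leaving out HRE1-RNAi hypoxia array 2 or 3 or HRE1-RNAi normoxia array 1 or 2 (adjusted p from 0.0924 to 0.122).

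Sugar transporters of the SWEET family showed 1 rise and 3 falls among 15 genes with such a symbol, beside 7.51% higher and 10.7% lower over all probe sets. SWEETIE, counted among the 15 and not called, is no member of the family. SWEET11, a sucrose exporter for phloem loading, read 1045, 1185, 1139 and 1223 in hypoxia, against 4889, 4637, 5026 and 4751 in normoxia, a change of -2.06 ± 0.11 (adjusted p = 3.20e-12). SWEET3 changed by -2.25 ± 0.16, and SWEET17, a fructose carrier of the vacuole, by -0.65 ± 0.15. SWEET2, a vacuolar glucose carrier of roots, read 937, 691, 615 and 742 in hypoxia, against 250.0, 244, 209 and 263 in normoxia, a rise of 1.55 ± 0.17. All 4 had no overlap.

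Among wall-loosening genes, expansins had 0 higher, 5 lower and 9 not called of 14, where 7.51% of all probe sets were higher and 10.7% lower. The lower ones include EXPB1 at -0.94 ± 0.22 and EXPA15 at -0.88 ± 0.22 besides the root hair members. They also include EXPA9 (adjusted p = 0.0195), whose call was lost in 5 of 27 alternatives. Xyloglucan-modifying XTH genes had 2 higher and 2 lower of 9. XTH20 rose by 1.76 ± 0.23 and XTH18 by 1.47 ± 0.30, while XTH33 changed by -0.84 ± 0.24, a call lost without any of HRE1-RNAi hypoxia arrays 1, 2 and 3 (adjusted p from 0.0515 to 0.0598). Of 7 calmodulin-like genes 3 rose, beside the same 7.51% higher over all probe sets, CML37 by 1.72 ± 0.39 and CML42 by 1.48 ± 0.15 besides CML38. CML37 was dim in normoxia, at a mean of 15.9, and its change was 2.46 with a pseudocount of 1 and 0.97 with 64. Its hypoxia array 4 read 242, against 45.2 to 73.8 in the others, and its change without both arrays numbered 4 was 1.37 (adjusted p = 0.0131). RALF peptides, signals that bind receptor kinases at the cell surface, had 2 higher, RALFL33 at 0.96 ± 0.13 and RALFL31 at 0.63 ± 0.16, and 9 not called. LAC16, a laccase that is dim in both conditions, changed by -1.07 ± 0.34 (adjusted p = 0.0288), and its call was lost after centring (adjusted p = 0.0517) and without HRE1-RNAi normoxia array 1 or 4 or HRE1-RNAi hypoxia array 1, 2 or 3 (adjusted p from 0.0605 to 0.0998).

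Wild type roots, in which 17.8% of probe sets were called for hypoxia against normoxia, gave a measure of what differs when HRE1 is targeted. The difference of the 2 responses, HRE1-RNAi minus wild type, was called for 4 of 22746 probe sets, 0.0176%. At an unadjusted p below 0.05 limma gave 770, where 5% of those tested would be 1137. Of the 4135 probe sets called in HRE1-RNAi, 3 had a called difference. For 3105 of them (75.1%) the 95% interval of the difference lay within a 2-fold change either way, and so it did for 936 of the 1737 that changed at least 2-fold. For 1023 of them the interval crossed a 2-fold change, so the spread of the arrays does not settle whether the responses differ by that much. For the other 7 the unadjusted interval lay wholly beyond 2-fold, yet none of these 7 differences was called (lowest adjusted p = 0.154). They include 2 genes described above and singled out here after their values were seen, both dim in normoxia, so that the size depends on the pseudocount. AT1G26380 rose by 5.65 ± 0.36 in HRE1-RNAi and by 3.23 ± 0.36 in wild type, a difference of 2.41 ± 0.52 (interval 1.33 to 3.49, adjusted p = 0.247). AT4G37290 rose by 4.26 ± 0.38 in HRE1-RNAi and by 1.86 ± 0.38 in wild type, a difference of 2.40 ± 0.53 (interval 1.30 to 3.51, adjusted p = 0.247).

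In the core genes no difference was called, and 18 of 27 intervals lay within 2-fold. Their median change was 2.58 in HRE1-RNAi and 2.32 in wild type, yet the rise was larger in HRE1-RNAi for 9 of 27 and the median of the differences was -0.16. CML38 rose by 6.12 ± 0.23 in HRE1-RNAi and by 5.26 ± 0.23 in wild type, a difference of 0.86 ± 0.32 (95% interval 0.19 to 1.53, adjusted p = 1). HRU1 rose by 2.85 ± 0.16 in HRE1-RNAi and by 3.29 ± 0.16 in wild type (interval of the difference -0.91 to 0.02). For PDC2 the interval was -0.90 to 0.55, for LDH1 -0.42 to 0.29 and for HRA1 -0.67 to 0.33, all within 2-fold. In heat shock genes the median was 1.73 in HRE1-RNAi and 2.27 in wild type, with a larger rise in HRE1-RNAi for 1 of 9, 0 differences called and 2 intervals within 2-fold. STZ rose by 3.65 ± 0.26 in HRE1-RNAi and by 2.66 ± 0.26 in wild type, a difference that was not called (interval 0.24 to 1.74, adjusted p = 1).

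The called difference with a gene of its own was that of AT3G16530, which encodes a legume lectin-type protein. It read 3253, 3992, 3829 and 2563 in HRE1-RNAi hypoxia, against 249, 269, 275 and 272 in HRE1-RNAi normoxia. In wild type it read 2205, 2041, 2603 and 1486 in hypoxia, against 518, 423, 405 and 409 in normoxia. HRE1-RNAi was the lower line in normoxia, without overlap, and in hypoxia it ran from a value inside the wild type range upward. The rise was 3.58 ± 0.16 in HRE1-RNAi and 2.19 ± 0.16 in wild type, a difference of 1.40 ± 0.23 (adjusted p = 0.0215). That call was lost in 10 of 26 alternatives. These were moderation with neither trend nor robust fit (adjusted p = 0.108) and leaving out HRE1-RNAi hypoxia array 1, 2 or 3, HRE1-RNAi normoxia array 1, wild type hypoxia array 2 or any wild type normoxia array (adjusted p from 0.0585 to 0.1).

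Probe set 262119_s_at, paired with no single gene, read 16819, 14873, 14881 and 17197 in HRE1-RNAi hypoxia, against 3731, 4208, 3628 and 3628 in HRE1-RNAi normoxia. In wild type it read 14589, 14316, 15949 and 14303 in hypoxia, against 7581, 6547, 7305 and 8687 in normoxia. Again HRE1-RNAi was lower in normoxia. Its difference of 1.09 ± 0.15 (adjusted p = 0.00604) kept its call in all 26 alternatives. The differences of 251677_at (1.11 ± 0.18, adjusted p = 0.0215) and 252827_at (1.27 ± 0.19, adjusted p = 0.0131) were lost in 11 and 4 of them. In HRE1-RNAi alone 252827_at was not called for hypoxia against normoxia (-0.34 ± 0.13), and in wild type it changed by -1.61 ± 0.13.

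**Figure D4:**
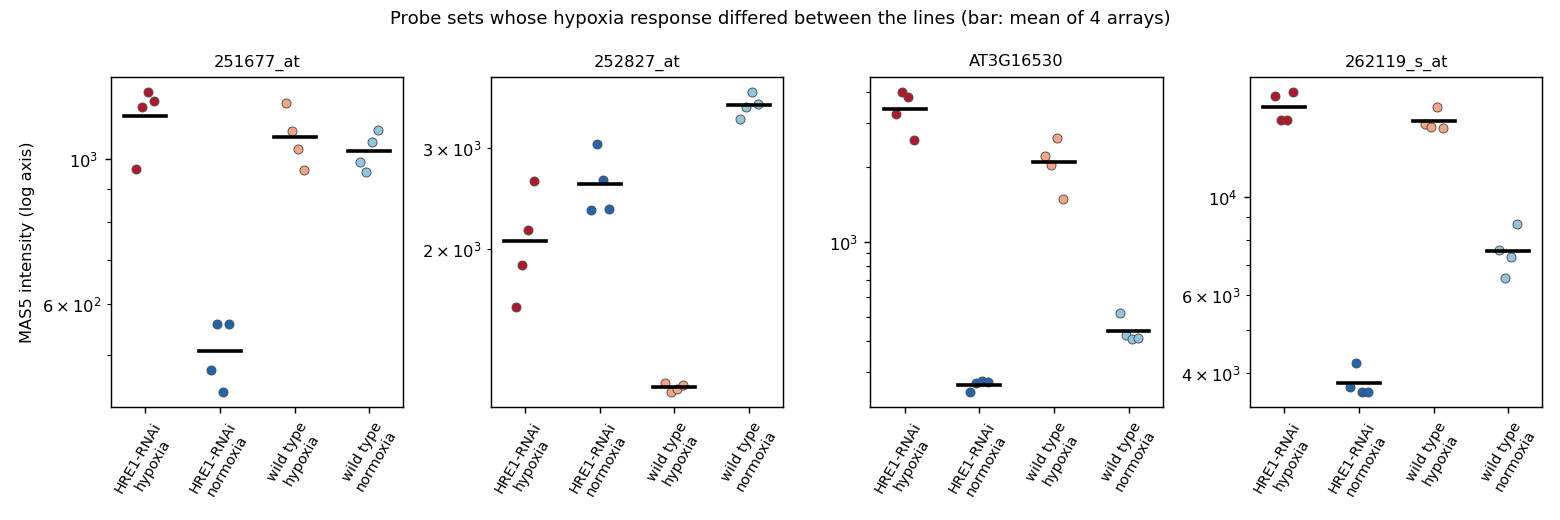
MAS5 intensity in each array for the 4 probe sets whose hypoxia responses were called as different between HRE1-RNAi and wild type. The groups are HRE1-RNAi hypoxia, HRE1-RNAi normoxia, wild type hypoxia and wild type normoxia, with group means as bars. For all 4 the mean in HRE1-RNAi normoxia lies below that in wild type normoxia.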

How the data were processed

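Roots were profiled on 16 Affymetrix arrays, of which the 8 from HRE1-RNAi seedlings give the comparison. The deposited values are a linear intensity per probe set and array, made with MAS5 per the submitters' processing notes, with no version given. The mean of each array without its lowest and highest 2% was close to 500, so the authors' values had been scaled per array, and no further scaling was applied. Precision is limited by having 4 arrays a group. In the table of probes, 13513 of the 22746 tested probe sets have 1 gene, 503 have several and 8730 have none listed, and 13436 took the symbol of the reference gene table, whose assembly is TAIR10.1. In lists, each gene enters with 1 probe set, the brightest by mean log2 value.

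With limma 3.58.1 in R 4.3.3, group means of log2(intensity + 16) were fitted over all 16 arrays (12 residual degrees of freedom, trend and robust moderation). Two-sided p-values were adjusted by Benjamini-Hochberg over all 22746 probe sets within each contrast. Array measures were compared by exact permutation (70 arrangements). Named are the 15 largest called rises and falls without overlap, from or to a mean of at least 16, then 5 each way from or to below 16. The 8 largest gains and losses of intensity, up to 6 called members of a list, up to 3 each way of a family and every called difference of responses are named too. The fermentation, oxygen sensing and reactive oxygen lists are named whole. Other list members, among them the rest of the core list, were named after their values were seen. The members, the 19 gene lists and the tests were chosen with earlier results of these data known. The fit was tested on simulated data.

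Same-numbered HRE1-RNAi arrays deviated together in 3 of 4 numbers, not in number 1. Whether the numbers pair arrays is not known, and the main fit left any such pairing out. With the number as a fixed block, 1822 probe sets were higher and 2654 lower. The 27 alternatives covered pseudocounts, scaling, a filter on dim probe sets, blocks, moderation, array weights, the 8 arrays alone and arrays left out. No sequence is shown.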

Additional observations from a re-analysis of the deposited data

Results flagged for a closer look

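Within groups of 4 arrays, 1 array stood further from its nearest neighbour than Dixon's 95% critical value allows in 15 of 264 groups tested, 256 of them over the named probe sets and 8 over 4 array measures. Chance flags about 1 in 20 groups. In all 15 the array was number 4, of hypoxia or of normoxia. The figure given with each is the gap divided by the group's range. Both were taken on the log2 scale used for the changes, after adding the pseudocount, whereas the intensities printed beside them are linear. The figures therefore do not follow from the linear intensities, and which groups are flagged depends on that scale.

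In HRE1-RNAi hypoxia, array 4 was the highest for AT1G36640 at 3529 (0.876), AT3G03670 at 2673 (0.837) and AT1G26420 at 583.8 (0.863). It was the lowest there for AT3G57020 at 179.5 (0.879), PDC2 at 2022 (0.855), NDB2 at 475.7 (0.925), UGT73B4 at 499.4 (0.953) and GSTU26 at 657.6 (0.866), and XTH33 read 133.6 (0.903). In HRE1-RNAi normoxia, array 4 read 225.3 for AT4G25250 (0.89), 1816 for AT3G57020 (0.872), 6693 for ZW9 (0.881), 338.1 for the heat shock gene AT1G54050 (0.882), 639.6 for CYP71B23 (0.89) and 314.3 for EXPA15 (0.909). Their part in single results was measured by leaving out both arrays. Among 128 named probe sets, which do not include FKBP65, PPDK was then the single call lost.

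The hypoxia response, tested as an interaction, was called as different between HRE1-RNAi and wild type for 4 probe sets. The differences of the log2 changes, HRE1-RNAi minus wild type, were 1.40 for AT3G16530, 1.27 for 252827_at, 1.11 for 251677_at and 1.09 for 262119_s_at. In that order, the calls were lost in 10, 4, 11 and 0 of 26 alternatives. Probe set 252827_at fell in wild type (-1.61) and was not called in HRE1-RNAi (-0.34).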

How the results depend on the processing

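Leaving out single arrays gave 1467 to 1760 higher and 1937 to 2593 lower calls, 839 to 912 and 803 to 982 at 2-fold or more, and 1 to 6 called differences of responses, with 1 call each without HRE1-RNAi hypoxia array 3, HRE1-RNAi normoxia array 1 or wild type normoxia array 3. Array weights gave 7 called differences. Lower calls were 1519 at an adjusted p below 0.01, and those at 2-fold or more were 554 with a pseudocount of 64. The replicate number as a fixed replicate block gave 1822 higher and 2654 lower calls, although its numbers are not known to pair arrays (correlations of deviations 0.04, 0.45, 0.36 and 0.66 for numbers 1 to 4). Arrays numbered 2, 3 and 4 correlated best with their own number and number 1 with number 2. As a random block it gave 1770 and 2562. Of 128 named probe sets followed through the alternatives, 123 were called, and 115 of these calls were kept under every alternative fitted for them. Among those not called, AT2G15880 and 252827_at were called under at least 1. The 128 leave out some list members, such as FKBP65 (call lost in 16 of 27), and genes named only in runs of neighbouring genes. The causes of these changes were not tested. The design rests on 4 arrays per group, dim probe sets carry sizes set by the pseudocount, and genes whose probe sets have several genes or none in the table were not named.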

Other observations

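Neighbouring genes sometimes moved together. Among measured genes in chromosome order, 5 runs of at least 3 changed at least 2-fold in the same direction in HRE1-RNAi roots, with at most 3 places of the gene order from one to the next, 4 of them higher and 1 lower, holding 16 genes. The definition of a run was chosen after the data were seen, probe sets of close relatives can share signal, and how often such runs arise without hypoxia was not tested.

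AT5G64100, AT5G64110 and AT5G64120, class III peroxidases side by side on chromosome 5, rose by 1.27 ± 0.14, 1.85 ± 0.28 and 1.73 ± 0.14. AT5G64100 had means of 13339 in hypoxia and 5567 in normoxia, and AT5G64120 of 3027 in hypoxia and 907 in normoxia. The falling run, on the same chromosome, held AT5G37980 (-1.66 ± 0.37), AT5G37990 (-1.58 ± 0.17), the methyltransferase gene AT5G38020 (-2.76 ± 0.14) and AT5G38030 (-1.79 ± 0.13). On chromosome 2, AT2G44370 rose by 3.90 ± 0.23, with means of 1545 in hypoxia and 89.5 in normoxia, between AT2G44360 (1.05 ± 0.13) and AT2G44380 (1.47 ± 0.21). On chromosome 1, AT1G22885, AT1G22890 and AT1G22900 rose by 1.49 ± 0.16, 2.55 ± 0.37 and 1.78 ± 0.35. AT1G72900, AT1G72920 and AT1G72940, TIR-domain genes of the same chromosome, rose by 1.14 ± 0.37, 2.02 ± 0.36 and 2.58 ± 0.18.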
